A study of Mus musculus with 16 samples.

Results

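Canertinib, given in the diet, was compared with no drug in the livers of mice labelled MET_FLOX, using 8 of the 16 expression arrays of a study of liver regeneration. The arrays were chosen by their arm label alone: the 4 arrays of MET_FLOX_canertinib and the 4 of MET_FLOX, each with 1 array at days 0, 2, 7 and 14, so that every canertinib array has a partner of the same day. Liver was taken around partial hepatectomy, surgery that takes out liver lobes and starts regrowth of the remnant, and RNA was measured as a signal intensity for each probe set. All 4 arms of the study carry the genotype label Metff/ff:ERCre+/+ on a mixed 129SV/C57BL/6 background, so the flox controls hold a floxed Met gene and an ERCre allele too. The MET_KO and MET_KO_canertinib arms, used here for the shared error estimate and for a second canertinib pair, had exon 16 of Met deleted through a tamoxifen-inducible system. The labels do not state whether the flox mice also received tamoxifen, which promoter drives Cre, or the mice's age, and the inhibition is described as systemic, so no effect can be assigned to hepatocytes alone. The drug was aimed at 80 mg/kg. With 1 array for each arm and day, p-values are judged against the spread left after the arm and day terms. That spread holds any drug difference that changes between days as well as array-to-array spread. The labels do not state how many animals an array holds, so the array-to-array part may be technical.

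Canertinib is an irreversible inhibitor of the kinases of the EGF receptor family (EGFR, ERBB2 and ERBB4). In the liver, EGFR is activated by ligands such as EGF, TGF-alpha, amphiregulin and heparin-binding EGF, and with the HGF receptor MET it delivers the main mitogenic signals that bring resting hepatocytes into the cell cycle after hepatectomy. A kinase inhibitor acts on the protein, so its target's RNA need not change. The comparison asks how liver RNA differs when that receptor family is inhibited while MET is left in place.

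Array brightness limits this comparison. Array median signals were 188.7, 168.8 and 174.7 in MET_FLOX at days 0, 2 and 7 but 245.8 at day 14, against 248 to 251.3 on the canertinib arrays, while the authors' scaling gave every array the same trimmed mean of 500. Thus at days 0, 2 and 7 each canertinib array is also the brighter array, and drug and array set cannot be told apart there; at day 14 both arrays have the brighter median. Differences below are log2 values after quantile normalization, canertinib minus none, and signals are printed as deposited. The ratio of the Gapdh probe set at the 3' end to that at the 5' end, a sign of RNA integrity, was 0.78 to 0.87 in MET_FLOX and 1.08, 1.11, 1.52 and 2.24 in the canertinib arm at days 0, 2, 7 and 14; its part in any result below was not tested.

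**Figure D1:**
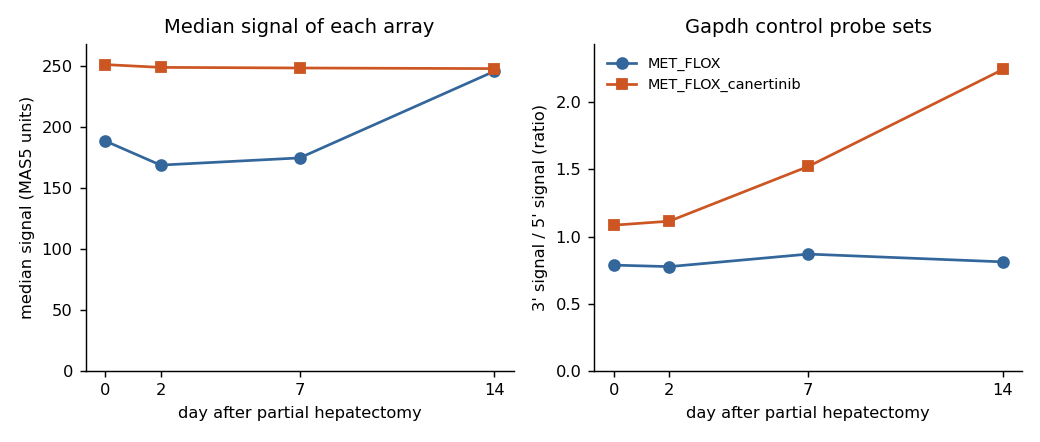
Median probe set signal (left) and ratio of the 3' to the 5' Gapdh probe set (right) of the 8 flox arrays by day, 1 point per array. The MET_FLOX medians at days 0, 2 and 7 lie between 168.8 and 188.7 and all other medians between 245.8 and 251.3, and the Gapdh ratio is highest, at 2.24, on the canertinib array of day 14.

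Transcripts of the drug's targets and their ligands gave no called difference. Of 17 measured ERBB receptors and ligands 0 passed limma's adjusted threshold of 0.05, where 2.87% of all 13577 genes did. An unadjusted p under 0.05 was found for 6 of the 17 and for 3355 of all 13577 genes. The latter count is the background for the unadjusted counts of every list below. Egfr signals were 3307.8, 5515.7, 7621.4 and 4414.7 at days 0, 2, 7 and 14 without drug and 6963.8, 4367.8, 7799 and 12541.1 with it. The arms overlapped, the canertinib arrays of days 0 and 14 were the clearly higher ones, and the estimate was 0.81 (SE 0.30, n = 4 arrays per arm, limma adjusted p = 0.121). Another Egfr probe set went the other way at day 14, with a signal of 1460 without and 707.7 with canertinib, so probe sets of the gene disagree. Erbb3, which signals as a partner of the other family members, differed by 0.08 (SE 0.18, limma adjusted p = 0.816), and Erbb2 lay below the signal filter, at 40.3 to 219.1.

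Among ligands, the heparin-binding Hbegf had signals of 165.4, 179.1, 178.4 and 227 without canertinib and 335.3, 265.7, 504 and 511.1 with it. Its arms did not overlap, but the difference of 0.69 (SE 0.25) missed the threshold (limma adjusted p = 0.115). The neuregulins Nrg2 and Nrg4, ligands of ERBB3 and ERBB4, likewise lay apart without passing, with Nrg2 higher by 0.74 (SE 0.20, limma adjusted p = 0.0582) and a limma adjusted p of 0.0744 for Nrg4. For Nrg4 the day 14 pair was level, with signals of 458.3 and 465.9. Of the 17 ERBB receptors and ligands, the arms did not overlap for 3 that were higher and 1 that was lower (6.18% and 4.85% of all genes). Tgfa and Btc, ligands of EGFR, differed by 0.28 and 0.43. Of the other hepatic mitogen pair, Met differed by -0.03 (SE 0.20) and its ligand Hgf by -0.02 (SE 0.43). Another Met probe set was lower with canertinib on every day, so probe sets of this gene disagree too. Its signals were 507.7, 522, 600.1 and 700.3 without and 355.5, 493.7, 97.8 and 428 with canertinib. In limma 0 of 10 genes of the HGF and MET list were called (2 with an unadjusted p under 0.05).

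Genes that respond to ERK, the kinase downstream of these receptors, also gave 0 calls of 21 in limma, with 3 at an unadjusted p under 0.05. The early growth response factor Egr1 was the clearest of them, with signals of 375.9, 451, 510.9 and 417.3 without canertinib and 1655, 1142.8, 2125.6 and 2122.8 with it. Every canertinib array was above every array without drug, and the difference of 1.91 (SE 0.59) had a limma adjusted p of 0.0794. Mt1, a metallothionein that binds zinc and copper, had 1740, 841.2, 12436.3 and 964.6 without drug against 52356.5, 6565.5, 21360.9 and 9595.5 with it, a difference of 3.02 (SE 0.92, limma adjusted p = 0.0793). The untreated day 7 array overlapped the treated range, and of the 12 measured metallothioneins and zinc transporters 8 had a higher and 4 a lower estimate, with 0 called by limma (4 at an unadjusted p under 0.05). Mt1 and Egr1 were chosen for mention after their values were seen.

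Across all genes, 389 of 13577 (2.87%) were called, 179 higher with canertinib (1.32%) and 210 lower (1.55%), in limma with arm and day as terms and errors shared over the 16 arrays; 3355 genes had an unadjusted p under 0.05. The direction was the same on all 4 days for 177 of the higher and 206 of the lower genes, where 16.9% of all genes were higher and 13.1% lower on every day. The arms did not overlap for 147 higher and 156 lower genes (6.18% and 4.85% of all genes). The calls were made on these same arrays, and a small p favours a steady direction and arms apart. These counts thus describe the called genes and are no separate support for them. The median difference over all genes was 0.05, which became 0.15 without further normalization and -0.20 with each array centred on its median. The split of calls moved with it, to 557 higher and 360 lower of 917 and to 173 higher and 1335 lower of 1508. The count also rested on single arrays. Leaving out the MET_FLOX array of day 0, 2, 7 or 14 left 7, 1, 3 or 268 calls, leaving out the canertinib array of those days left 24, 20, 9 or 1075, leaving out the MET_KO array left 164, 85, 32 or 488, and leaving out the MET_KO_canertinib array left 126, 429, 225 or 969. Fitted on the 8 flox arrays alone, the glutathione transferase Gstp3 was the only gene to pass (limma adjusted p = 0.0326), and 3104 genes had an unadjusted p under 0.05.

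Among the largest called rises were genes with low signals in untreated liver. The signal filter asked for a signal above the array median on at least 4 of the 16 arrays. Among flox arrays, Slc8a1, Cdh20 and Nfkbid met it only through the canertinib arm, as did Tubb4a, Stk32c and Trav12n-1, named below. The filter thus favours such rises and, in the same way, falls to low treated signals. Among falls named below, Cops4, Ugt2b37 and Pth1r had treated signals under the array median on all 4 canertinib arrays. Slc8a1, a sodium/calcium exchanger, had signals of 65.8, 34.7, 15.8 and 24.1 at days 0, 2, 7 and 14 without canertinib and 386.6, 526.9, 372 and 679.9 with it. All 4 treated arrays were far above all 4 untreated ones, and the rise was 3.09 (SE 0.54, limma adjusted p = 0.0282). Its difference was 4.15 at day 14 and -0.55 in the knockout pair of arms (limma adjusted p = 0.548 there). Cdh20, a cadherin, had 40.8, 25.9, 34.1 and 102.7 against 344.5, 678.9, 671.9 and 712.1, a rise of 3.05 (SE 0.48, limma adjusted p = 0.026). Here too no array of one arm reached the other, and the day 14 difference was 2.68. Nfkbid, a nuclear IκB protein that modulates NF-κB, rose by 2.25 (SE 0.43, limma adjusted p = 0.032), with untreated signals of 58, 34.1, 42.3 and 127.5 and treated signals of 369.6, 383.6, 556.2 and 377.6. Its day 14 difference, 1.42, was the smallest of the 4 days.

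Further genes with called rises were the beta-tubulin Tubb4a (2.12), the kinase Stk32c (1.98), the phospholipid scramblase Plscr4 (1.97), the mesoderm factor Msgn1 (1.87), the small GTPase Rab6b (1.69), neuroglobin Ngb (1.67), Ankrd66 (1.65) and the T cell receptor segment Trav12n-1 (1.46). At day 14 they lay between 0.77 for Ankrd66 and 2.94 for Stk32c. Dus2, a tRNA dihydrouridine synthase, behaved differently. Its signals were 121.3, 80.4 and 81.7 on the untreated arrays of days 0, 2 and 7 but 1461.8 at day 14, next to 1515 to 1607.3 on all canertinib arrays. Its called rise of 2.80 (SE 0.55, limma adjusted p = 0.033) thus had a day 14 difference of only 0.15, and the low values were all on the dimmer arrays. The methyltransferase-family gene Smyd5 rose by 1.70 over the days and by 0.67 at day 14, with overlapping arms.

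**Figure D2:**
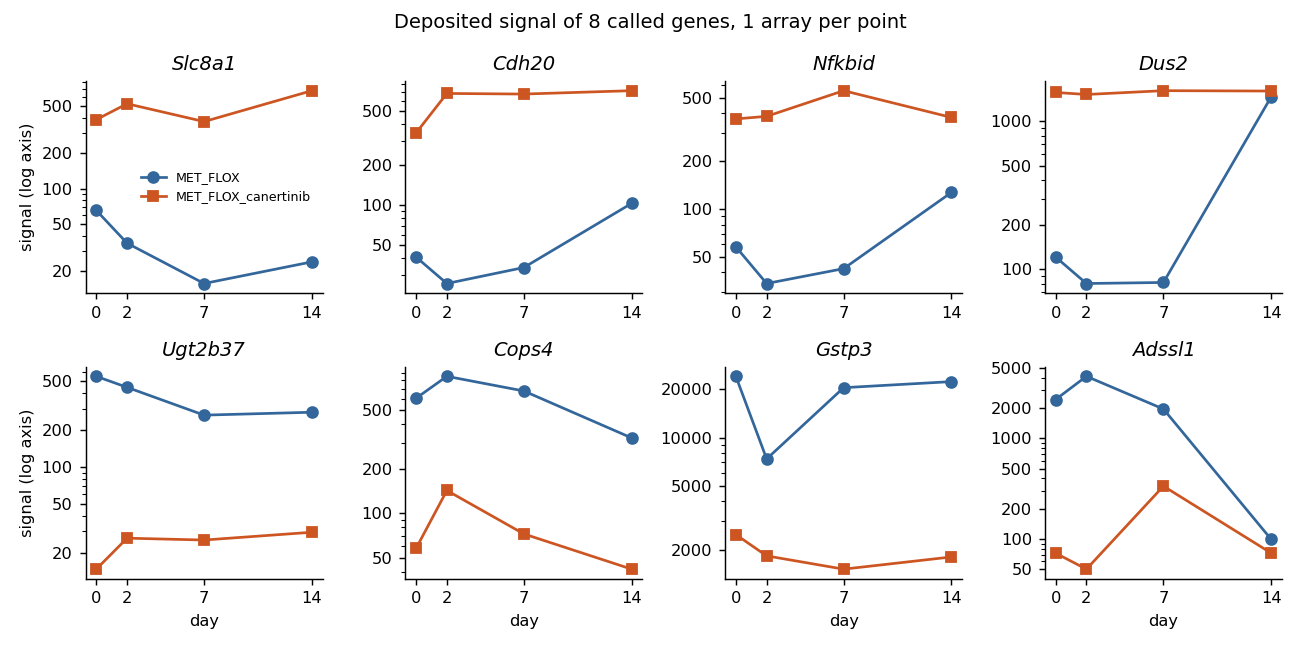
Deposited signal (log axis) by day for 8 called genes, 1 point per array, with MET_FLOX and MET_FLOX_canertinib as separate lines. Slc8a1, Cdh20, Nfkbid, Ugt2b37, Cops4 and Gstp3 keep the arms apart at day 14, while the day 14 signals of Dus2 (1461.8 and 1598.1) and Adssl1 (99 and 72.3) nearly meet.

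Called falls included 2 conjugating enzymes. Gstp3, a pi-class glutathione transferase, had 24125.8, 7359.4, 20490.5 and 22357.8 without canertinib and 2480.9, 1826.5, 1509.4 and 1798.8 with it. The highest treated array was below the lowest untreated one, the fall was 2.93 (a difference of -2.93, SE 0.51, limma adjusted p = 0.0282), and the day 14 pair differed by -3.58. The neighbouring family member Gstp1 had signals of 30934 to 73423 and differed by 0.17 (SE 0.25, limma adjusted p = 0.698). Ugt2b37, a glucuronosyltransferase, had 549.8, 447, 265.2 and 280 against 14.7, 26.3, 25.4 and 29.4, a difference of -3.56 (SE 0.60, limma adjusted p = 0.0282). The treated signals were below 30 on every array, where the pseudocount of 16 holds the difference down, and the day 14 difference was -2.69.

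Cops4, a subunit of the COP9 signalosome that regulates cullin ubiquitin ligases, had the smallest p of all genes. Its signals were 602.8, 849.3, 675.2 and 324.2 without canertinib and 57.7, 142.6, 72.3 and 41.7 with it. The arms were apart on each day and the difference was -2.97 (SE 0.32, limma adjusted p = 0.00313), with -2.56 at day 14. The knockout pair gave -1.33 over the days (limma adjusted p = 0.0499) but -0.15 at its own day 14. Adssl1, the muscle-type adenylosuccinate synthase, fell by 3.45 over the days (SE 0.66, limma adjusted p = 0.032), yet its untreated day 14 signal was 99 after 2431.9, 4135.6 and 1956.2, and the day 14 difference was -0.42.

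Other called falls covered several roles. The leukocyte surface protein Cd48 fell by 3.08, the parathyroid hormone receptor Pth1r by 2.88, the sinusoidal endothelial gene Oit3 by 2.59, the centrosome protein gene Pcnt by 2.58, Nxpe2 by 2.50, the coenzyme Q binding protein gene Coq10a by 2.47, the sedoheptulose kinase gene Shpk by 2.44, the arrestin-domain gene Arrdc2 by 2.35, Ttc7b by 2.26, Prrg3 by 1.89, the mitochondrial cristae protein gene Apool by 1.85 and Nat8f5 by 1.51. At day 14 they ranged from -0.72 for Oit3 to -3.68 for Pcnt. Apool had signals of 1064, 953, 904 and 886 without canertinib and 558.3, 458.2, 274.1 and 84.2 with it, so that the arms were furthest apart at day 14, where the difference was -3.29. Of the 16 measured endothelial markers, which include Oit3, 15 had a lower estimate, against 6223 of all 13577 genes, and Oit3 was the 1 called (1.55% of all genes were called lower). Their signals summed to 14943.3 to 19491.2 without and 9717 to 15040.9 with canertinib; the part of endothelium in the fall of Oit3 was not tested.

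Within the gene lists, called genes were few. Cyp7b1, the oxysterol hydroxylase of the alternative bile acid pathway, had 32960.8, 20598.1, 30260 and 16058.8 without canertinib and 7468.6, 9370, 3265 and 9816.7 with it. It fell by 1.68 (SE 0.35, limma adjusted p = 0.0379) with the arms apart, although the day 14 difference was -0.69. Cyp7a1, the rate-limiting enzyme of the classical bile acid pathway, was lower on each day, but its -0.91 (SE 0.72) had a limma adjusted p of 0.451. Glutathione reductase, Gsr, fell by 0.70 (SE 0.17, limma adjusted p = 0.0453) and the retinol dehydrogenase gene Rdh16 by 1.22 (SE 0.24, limma adjusted p = 0.033), the latter by 1.63 at day 14. The RNA polymerase I subunit gene Polr1e and the nucleolar gene Noc2l fell by 2.47 and 1.59.

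Higher list genes included several of hepatocytes. Foxa3, a transcription factor of hepatocytes, had 901.5, 920.7, 1129.9 and 1188.1 against 1187.9, 1673.3, 2903.5 and 2879 and rose by 1.03 (SE 0.23, limma adjusted p = 0.0402). Before normalization the lowest treated signal met the highest untreated one; every day's treated array was above its partner. Apob, the structural protein of very low density lipoprotein, rose by 0.71 (SE 0.14, limma adjusted p = 0.0369), with differences of 0.65 to 0.78 on the 4 days, the clotting factor gene F5 by 0.73 and the anti-apoptotic gene Mcl1 by 0.99 (SE 0.18, limma adjusted p = 0.0288). Albumin, Alb, had signals of 38769 to 71473.5 without and 99690.9 to 117412.6 with canertinib. After normalization it differed by 0.59 (limma adjusted p = 0.119) and by 0.09 at day 14, where the deposited signals were 71473.5 and 110032.5. The small day 14 value thus rests on the normalization. Hepatocyte markers summed to 199064 to 312660 in MET_FLOX and 445683 to 466708 with canertinib, as deposited. At days 0, 2 and 7 that sum also carries the array set. At day 14, where both arrays have the brighter median, it was 312660 and 459477. After normalization the median of the 8 measured members was 0.33 over the days and 0.15 at day 14 (0.43 and 0.42 under the other scalings), and 1 was called. The B cell marker Ms4a1 (1.10) and the pancreatic elastase Cela3b (1.20) also rose, with day 14 differences of 0.15 and 0.35. Their marker lists summed to 2231.2 to 7740.1 without and 7079.9 to 12168.4 with canertinib for lymphocytes and to 3401.8 to 6550.6 and 6389.2 to 7151 for acinar cells, and the part of such cells in these rises was not tested. In bulk liver, fewer cells of a type and less RNA per cell cannot be told apart.

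The day 14 pair, free of the difference in array medians, is a comparison of 1 array with 1 array and has no test. Its arrays still differed in the 3' to 5' ratio of Gapdh, 0.81 without and 2.24 with canertinib. The same ratio for actin was 1.63 and 3.39, and the part of RNA integrity in the day 14 differences was not tested. There 1734 genes (12.8%) differed by a log2 size of 1 or more, 829 higher (6.11%) and 905 lower (6.67%). Of the 389 called genes, whose fit includes day 14, 133 passed that size in the called direction (46 higher, 87 lower), while 96 had a day 14 size under 0.5. A fit on days 0, 2 and 7 alone, over 12 arrays, called 2006 genes (14.8%), 1068 higher (7.87%) and 938 lower (6.91%). At day 14, which that fit did not use, 1226 of them (61.1%) had the same sign, against 55% of all genes judged by their mean over days 0, 2 and 7, and 179 (8.92%) passed a size of 1 in that direction, against 7.48%. Genes called at the first 3 days were thus only slightly more often of the same sign at day 14 than genes in general. Across the 13577 genes, Pearson's r between the differences was 0.46, 0.39 and 0.46 among days 0, 2 and 7, and 0.04, 0.12 and 0.13 between each of these and day 14 (as a description across genes, which are not replicates; the first 3 pairs also share their array sets).

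**Figure D3:**
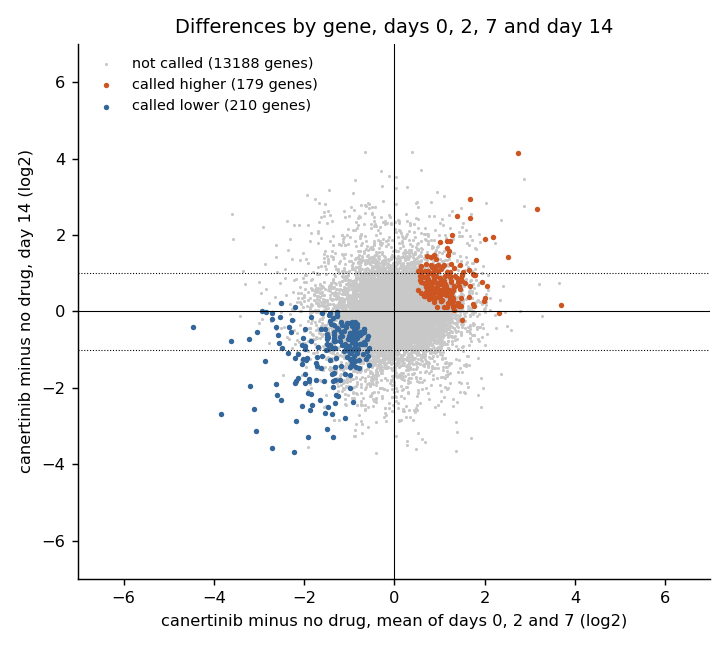
Mean log2 difference (canertinib minus none) over days 0, 2 and 7 against the difference at day 14, 1 point per gene, with genes called over the 4 days marked. Called genes spread along the horizontal axis, and 96 of the 389 lie within 0.5 of 0 at day 14.

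The knockout arms give a second canertinib pair with its own controls, laid out over array sets in the same way. There 270 genes were called (1.99%), 62 of them among the 389 and in the same direction. Of the 389, 362 (93.1%) had the same sign in the knockout pair, against 74.8% of all genes; at the knockout's day 14 the same sign was found for 288 (74%), against 53.6%. Of the 133 genes both called over the days and past a size of 1 at day 14 in flox, 98 (73.7%) had the same sign and 29 (21.8%) passed that size at the knockout's day 14, against 11.5% of all genes. Of all 1734 genes past that size at flox day 14, called or not, 957 (55.2%) had the same sign at the knockout's day 14, close to the 53.6% of all genes. With array set as a term, the flox difference is estimated from the day 14 pairs of both genotypes, as their mean less the part given to the interaction, and 17 genes passed (0.125%), 4 higher and 13 lower, and 1686 had an unadjusted p under 0.05. The genes shared with the 389 were Nat8f5, Rdh16, Ppp6r1 and Aga, and all 4 were lower; Ppp6r1 and Aga were named after their values were seen.

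The drug's difference itself depended on genotype for 2 genes (0.0147%; 635 with an unadjusted p under 0.05). Cyp17a1, a steroid hydroxylase, had signals of 2562.5, 3558.8, 1976.3 and 602 in MET_FLOX and 267.7, 660.6, 592.1 and 777.6 with canertinib, a difference of -1.70 that was not called in flox (limma adjusted p = 0.061). In the knockout it was 3.34, and the interaction was 5.04 (limma adjusted p = 0.0204). Mmd2 was 5753.8, 5641.9, 4476.5 and 806.5 against 676.7, 774, 90.5 and 493.9, which fell by 2.91 in flox and rose by 3.52 in the knockout, with an interaction of 6.44 (limma adjusted p = 0.0204). In both genes the untreated day 14 signal was the lowest of its arm. These 2 calls were lost when any MET_KO array, the MET_FLOX array of day 0, 2 or 7, or the MET_FLOX_canertinib array of day 2 was left out (0 called, 533 to 644 with an unadjusted p under 0.05), 1 was left without the MET_FLOX_canertinib array of day 7, and 10 and 4 genes were called without the MET_KO_canertinib and MET_FLOX arrays of day 14.

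Cholesterol synthesis was the list with the most uniform direction over the days. These enzymes convert acetyl-CoA through mevalonate to sterols, and most are transcribed under control of the sterol-responsive factor SREBP-2. All 20 measured genes had a lower estimate with canertinib, yet limma called 0 over the 4 days (2.87% of all genes were called). An unadjusted p under 0.05 was found for 12 of the 20, against 3355 of all 13577 genes. Of the 20, 10 were lower on every day and 0 higher (13.1% and 16.9% of all genes). The list median was -0.08, -0.78, -2.07 and -0.34 at days 0, 2, 7 and 14. Thus the list median was near 0 at day 0, although 15 of 20 genes were lower there (6716 of all 13577 genes). The arms were furthest apart at day 7, where 16 of 20 were lower by 1 or more (9.63% of all genes). At day 14, 15 of 20 were lower, 4 of them by 1 or more (6.67%), and Mvk alone was higher by that size, at 1.05. The fit on days 0, 2 and 7 called 9 of the 20, all lower (45%, against 6.91% of all genes).

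Single genes show the low at day 7, but Msmo1 and Idi1 were already well below their untreated partners at day 0. Fdps, the farnesyl diphosphate synthase, had 4716.1, 4232.2, 7625 and 7461 at days 0, 2, 7 and 14 without canertinib and 3506.3, 1116.7, 435.5 and 1817.7 with it. Its treated signals were lowest at day 7, and the difference over the days was -1.95 (SE 0.52, limma adjusted p = 0.0589). Idi1, the isopentenyl diphosphate isomerase, had 8577.6, 7260.2, 10671 and 10916.3 against 4938.1, 1796.9, 946.1 and 6462.5. Msmo1, a methylsterol monooxygenase, had 12530.5, 5838.6, 10433 and 8357.9 against 4454.3, 861.5, 844.4 and 4817.7. Hmgcs1, the cytosolic HMG-CoA synthase, had 18933.9, 11967.1, 24991.7 and 19649.8 against 15942.4, 6330.5, 3394.7 and 23645.1. In each of these genes the treated day 7 array was the lowest of the 8, and for Hmgcs1 the treated day 14 array was above its untreated partner, as on no earlier day. Fdps was still well below its untreated partner at day 14. So was Nsdhl, a sterol dehydrogenase, with 6918.4 without and 2202.6 with drug on that day.

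Since days 0, 2 and 7 of an arm all lie in the same array set, changes within an arm over those days do not cross sets. From day 0 to day 7 the list median was -1.65 in the canertinib arm, with 15 of 20 genes lower by 1 or more (7.55% of all genes), and 0.08 without drug, with 0 of 20 (4.14%). The difference between these courses was negative for 20 of 20 genes, 14 of them by 1 or more (9.79% of all genes), with a median of -1.64, and of -1.60 and -1.69 under the other 2 scalings. At day 2 that median was -0.65, with 17 of 20 negative. Each course rests on 1 array per day and on the same day 0 pair, so no test can be given. On the knockout's day 14 pair 17 of 20 genes were higher with canertinib, at a median of 0.58, and 8 by 1 or more (9.44% of all genes).

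**Figure D4:**
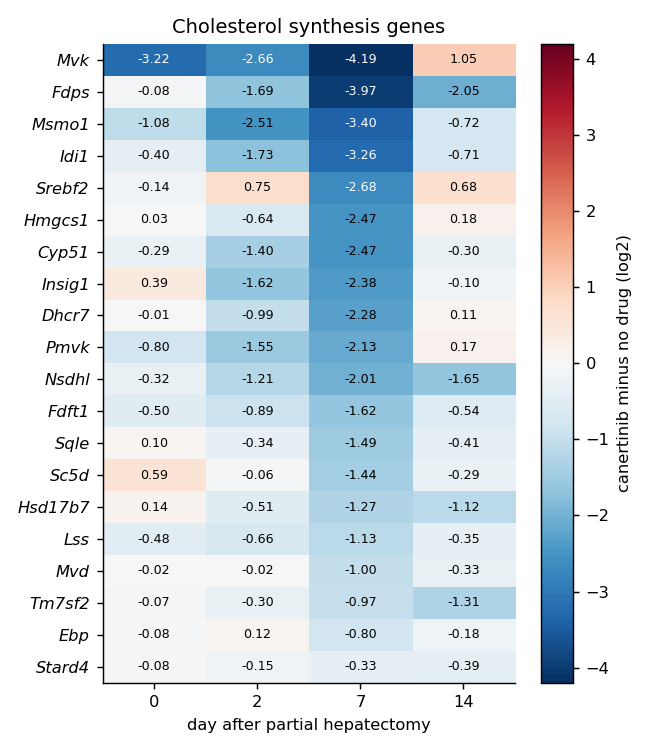
Log2 difference (canertinib minus none) of the 20 measured cholesterol synthesis genes at each day, 1 row per gene, with the value in each cell and the colour scale in log2 units. The day 7 column is negative in all 20 rows, with a median of -2.07, while day 0 has a median of -0.08.

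Promoters are shown for 4 of these genes because they moved together, to let the shared letters be seen. Each run is the 250 bases before the first listed start, on the gene's strand, from RefSeq on GRCm38.p6; capitals mark CCAAT or its reverse complement ATTGG, the box bound by NF-Y, and TCACNCCAC, a sterol regulatory element form.
Hmgcs1, chr13:119690101-119690350, plus strand: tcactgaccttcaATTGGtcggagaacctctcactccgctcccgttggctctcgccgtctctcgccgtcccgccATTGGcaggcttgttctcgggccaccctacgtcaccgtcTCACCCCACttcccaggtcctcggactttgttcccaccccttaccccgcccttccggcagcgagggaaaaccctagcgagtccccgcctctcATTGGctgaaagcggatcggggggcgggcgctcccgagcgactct
Idi1, chr13:8885356-8885605, plus strand: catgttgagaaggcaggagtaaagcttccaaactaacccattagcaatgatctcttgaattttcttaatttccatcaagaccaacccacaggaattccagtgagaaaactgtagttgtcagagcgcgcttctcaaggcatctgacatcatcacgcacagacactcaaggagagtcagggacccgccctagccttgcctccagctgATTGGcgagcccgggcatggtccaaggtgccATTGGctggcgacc
Nsdhl, chrX:72918271-72918520, plus strand: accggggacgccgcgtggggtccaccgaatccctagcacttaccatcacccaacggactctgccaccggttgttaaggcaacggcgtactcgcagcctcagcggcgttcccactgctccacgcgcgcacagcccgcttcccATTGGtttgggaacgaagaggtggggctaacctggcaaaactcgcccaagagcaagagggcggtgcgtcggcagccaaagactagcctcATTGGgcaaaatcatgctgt
Msmo1, chr8:64733579-64733828, minus strand: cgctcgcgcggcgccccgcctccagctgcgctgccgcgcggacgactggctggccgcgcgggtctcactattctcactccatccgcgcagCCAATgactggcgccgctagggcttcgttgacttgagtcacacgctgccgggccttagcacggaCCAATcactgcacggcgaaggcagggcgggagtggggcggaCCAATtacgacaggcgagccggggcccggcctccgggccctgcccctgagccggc
All 4 hold CCAAT on one of the strands, and Hmgcs1 also holds TCACNCCAC, as TCACCCCAC. Of the 20 list genes, 16 had a promoter in the table. In the whole 300-base windows, which add 50 bases after the start, CCAAT was found on either strand in 15 of 16 (93.8%), against 37.4% of 32851 promoters, and TCACNCCAC in 1 of 16 (6.25%), against 1.24%. The motifs were picked after the list's values were seen, and the matches are descriptions of letters, not of binding.

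Fatty acid synthesis, controlled in liver by SREBP-1c and insulin, took another course. Of 19 genes limma called 0 over the days, with 1 at an unadjusted p under 0.05. At day 0 the list was higher with canertinib (median 0.79, 17 of 19 genes), while from day 0 to day 7 the canertinib course ran below the untreated one for 16 of 19 genes, 11 by 1 or more (9.79% of all genes), at a median of -1.12. Scd1, the stearoyl-CoA desaturase, had 25728, 16479.6, 27325.2 and 48590.1 without and 77204.5, 16345.4, 2779.9 and 38185 with canertinib. The treated arm thus held both its highest and its lowest value of the 8 arrays. Thrsp, a lipogenic nuclear protein, likewise had 10458.3, 17620.8, 6806 and 14614.5 against 37093.3, 4121.6, 1120.8 and 4656.2. Since the day 0 pair enters every course, its high treated values raise the size of these differences. On the knockout's day 14 pair 18 of 19 genes were lower with canertinib, 13 by 1 or more (11% of all genes), whereas on the flox day 14 pair 9 of 19 were lower, 3 by that size.

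Fatty acid oxidation genes and PPAR alpha targets ran the other way. Of 19 genes limma called 0, with 4 at an unadjusted p under 0.05. The course from day 0 to day 7 was higher with canertinib for 18, 8 of them by 1 or more (11.6% of all genes), at a median of 0.74. Under the other scalings 16 and 15 of 19 were higher. The day 0 pair, which enters this course, had 14 of 19 lower at a median of -0.29. In the day 7 pair itself the median was 0.51. Cyp4a14, a fatty acid hydroxylase, had 21331, 9692.9, 4228.3 and 1051.2 without drug, a decline over the days, and 1418.1, 3541.6, 10708.2 and 574.5 with it. The arms crossed between days 2 and 7. Acot1, an acyl-CoA thioesterase, had 2499.8, 3572.6, 745.9 and 417.3 against 288.8, 682.3, 860.5 and 226.7, with the same crossing. At day 14, 14 of the 19 genes were lower with canertinib in flox, at a median of -0.11, and 15 of 19 in the knockout, at a median of -0.76.

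Macrophage markers differed in sign between days. Of 18 Kupffer cell and macrophage genes limma called 0, with 1 at an unadjusted p under 0.05. The median difference was 0.75 at day 7, with 0 of 18 lower, and -1.01 at day 14, with 17 of 18 lower and 10 by 1 or more (6.67% of all genes). The course from day 0 to day 7 was higher with canertinib for 17 of 18, 11 by 1 or more (11.6%); within the arms, 12 of 18 were higher at day 7 than at day 0 by 1 or more with canertinib and 3 without (8.19% and 3.9% of all genes). Cd163, a macrophage scavenger receptor, had 588.6, 878.9, 1172.5 and 1771.1 without drug and 350.7, 393.5, 3759.4 and 698.7 with it. Its treated day 7 array was the highest of the 8 and its treated day 14 array lay well below the untreated partner. Vsig4, a complement receptor of Kupffer cells, had 2230.4, 2071.7, 3278.5 and 4320.1 against 1078.8, 1289, 4375.7 and 1357.5. The marker sum was 34167.9 to 83026.3 without and 26973.1 to 98489.1 with canertinib. On the knockout's day 14 pair 13 of 18 were higher. Stellate cell and matrix genes also ran higher from day 0 to day 7, in 18 of 20 at a median of 0.87, while 11 of 20 were lower at day 14. Endothelial markers did so in 14 of 16, at a median of 0.94, with 11 of 16 lower at day 14. From day 0 to day 7, 7278 of all 13577 genes ran higher, and 6633 were lower at day 14. The day 0 pair enters all these courses. Its median difference was -1.15 for endothelial, -0.67 for stellate and -0.73 for macrophage genes. In the day 7 pair itself 11 of 16 endothelial markers were lower, at a median of -0.26, and the stellate median was 0.20.

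Acute phase genes, which hepatocytes switch on in response to IL-6 and related cytokines, were mostly higher with canertinib at days 0 and 2 but not later. Saa2, a serum amyloid A, had 1489.2, 22824, 50649.1 and 29878.8 without canertinib and 54256.5, 56937.3, 17941.1 and 3644.5 with it. Lcn2, lipocalin 2, had 1259.6, 20412.9, 43481.8 and 10112.3 against 68800.8, 46342.1, 27773.2 and 7616. The untreated arm was at its lowest at day 0, where the treated arm was near its highest, and the order was reversed at days 7 and 14. Of 22 acute phase genes limma called 0 over the days (8 with an unadjusted p under 0.05). Their median difference was 0.76, 0.62, -0.16 and -0.24 at days 0, 2, 7 and 14. At day 0 and at day 2, 5 of 22 were lower, and at day 7 14 were. At day 14, 6 were lower by 1 or more (6.67% of all genes). Hamp, the iron-regulatory hormone hepcidin, had 33874.9 without and 3275 with canertinib at day 14. On the knockout's day 14 pair 18 of 22 were higher with drug. Neutrophil markers, whose list includes the granule gene Lcn2, had a summed signal of 4400.8, 23305.7, 47216.1 and 17473.3 without canertinib and 74062.5, 51149.9, 34653.7 and 15598.5 with it. Lcn2 makes up most of that sum (68800.8 of 74062.5 at treated day 0), and the median difference of the 11 measured neutrophil markers was 0.43, 0.22, 0.46 and -0.08 on the 4 days. The part of neutrophils in the acute phase values was not tested.

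Glutathione transferases and NRF2 targets were lower at day 14 in 25 of 29 genes, at a median of -0.41, with 4 lower by 1 or more (6.67% of all genes) and 0 higher by that size. Over the days 1 of 29, Gsr, was called, and 11 were lower on all 4 days (13.1% of all genes). Gstm3, a mu-class transferase, had 9385.6 without and 4601.2 with canertinib at day 14, and Nqo1, a quinone reductase, 330.3 and 193.6. The knockout's day 14 pair had 22 of 29 lower, at a median of -1.20. Gstp3 is outside this list's calls and is given above. Periportal hepatocyte genes had 7 of 17 higher by 1 or more at day 14 (6.11% of all genes), at a list median of 0.09 that was 0.47 and 0.46 under the other scalings, while limma called 0 over the days (5 with an unadjusted p under 0.05). On the knockout's day 14 pair 11 of the 17 were lower, 8 by 1 or more (11% of all genes), at a median of -0.99.

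Entry into the cell cycle after hepatectomy was present in both arms. Of 61 genes of DNA replication and mitosis, 49 were higher at day 2 than at day 0 by 1 or more without canertinib and 45 with it (4.76% and 7.42% of all genes), with medians of 1.89 and 1.77. The change was smaller with canertinib in 32 of 61 (42.1% of all genes). Over the 4 days limma called 0 of the 61 genes (14 with an unadjusted p under 0.05, against 3355 of all 13577 genes). Pcna, the sliding clamp of DNA polymerase, had 978.3, 9267.3, 1974.7 and 1891.3 without and 1447.6, 5419.8, 1506.1 and 1145.5 with canertinib. Day 2 was the highest array of either arm, and day 2 minus day 0 was 2.98 and 1.96. Cdk1, the mitotic kinase, had 293.5, 3233.6, 996.8 and 197.3 against 102.2, 2432.5, 191.7 and 127.1, day 2 minus day 0 values of 3.01 and 4.67. Mki67, the proliferation marker, had day 2 minus day 0 values of 2.76 and 4.46, from lower day 0 signals with drug (64.9 against 190.5).

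The 2 phases differed in part. For S phase genes the medians of day 2 minus day 0 were 1.76 without and 1.31 with canertinib, and 18 of 27 were smaller with drug, 9 of them by 1 or more (8.59% of all genes). The replicative helicase subunit Mcm6 was among these, at 3.42 and 1.97, with day 2 signals of 2542.7 and 568.2, and Mcm3 another, at 2.82 and 1.77. For G2/M genes the medians were 2.04 and 2.10, and the median of the gene-by-gene difference was 0.33, which became -0.02 and -0.15 under the other 2 scalings, so its direction is not settled. At day 7, when the untreated arm still had 16 of 34 G2/M genes higher than at day 0 by 1 or more, the canertinib arm had 3. In that pair 27 of 34 were lower with drug (6184 of all 13577 genes), 12 by 1 or more (9.63% of all genes). The G1 cyclin Ccnd1 had 1802.1, 6256.2, 3631.9 and 2308.4 without and 1248.7, 5404.2, 5292.8 and 2106.9 with canertinib. Its day 7 minus day 0 value was 0.87 without and 2.19 with drug, and its difference over the days was 0.14 (SE 0.30, limma adjusted p = 0.807). Both the day 2 and the day 7 values rest on 1 array each and have no test.

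**Figure D5:**
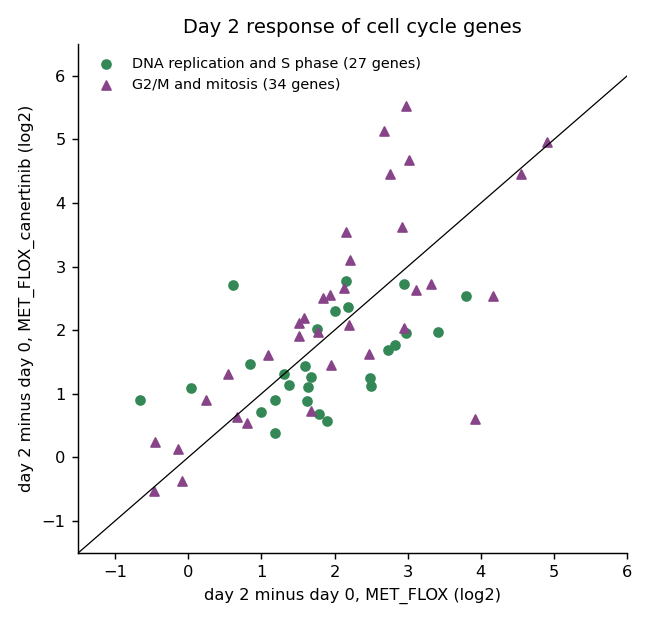
Log2 change from day 0 to day 2 without canertinib (horizontal) against that with canertinib (vertical) for the 61 S phase and G2/M genes, 1 point per gene, with the line of equal change. Points lie on both sides of the line, with 32 of 61 below it, and the medians are 1.89 and 1.77.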

How the data were processed

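The deposited values are linear signal intensities of probe sets, made by the authors with MAS5 (per the submitters' processing notes, no version) from 6 ug of liver RNA per the labels' protocols. The files give 45101 probe sets. Probe sets with 1 annotated gene (34945) were used, symbols were updated through gene IDs, and 9160 were unnamed here. The log2 of signal plus 16 was quantile-normalized over 16 arrays. Probe sets above their array's median on at least 4 arrays were kept (22317), and each gene took its probe set of highest mean (13577 genes). limma 3.58.1 in R 4.3.3 fitted arm and day, with an intensity trend, 9 residual degrees of freedom, a two-sided test and Benjamini-Hochberg adjustment over all genes; calls need an adjusted p under 0.05. The number of arrays limits precision. Pairing by day comes from the labels. A course value is day 7 (or 2) minus day 0. The script was checked on simulated data. Alternatives were scaling, pseudocount, filter, probe set rule, arrays in the fit, array set, the day block and leaving out arrays.

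Named genes were, among calls of 1 direction on all 4 days, the 12 largest rises and falls, the 8 largest of each at day 14, up to 3 called genes per list, and fixed receptors, ligands and cell cycle genes; others are examples from the lists. The comparison, the 43 lists and these rules were chosen with earlier results of these data known. Areg had no probe set named here.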

Additional observations from a re-analysis of the deposited data

Results flagged for a closer look

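Days differ within an arm, so a day that stands apart may be a course over time; among 114 gene-by-arm groups of 4 arrays, 10 had an array whose gap to its nearest neighbour took more of the group's range than Dixon's 95% limit of 0.829, and chance gives about 1 in 20. In MET_FLOX these were Dus2 and Mmd2 at day 14 (gap shares of 0.893 and 0.861), Ngb at day 7 (0.886) and Pcnt at day 0 (0.906). With canertinib they were Cdh20 at day 0 (0.922), Dus2 at day 2 (0.928), Nfkbid, Plscr4 and Pcnt at day 7 (0.875, 0.879 and 0.873) and Cdk1 at day 2 (0.829). The Dus2 and Mmd2 arrays of MET_FLOX at day 14 are also the only array of that arm with the brighter median, whose part was not tested. For canertinib Dus2 the whole range was small, 1515 to 1607.3 in signal.

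By the interaction test, the canertinib difference in the knockout minus that in flox was 5.04 for Cyp17a1 and 6.44 for Mmd2 (limma adjusted p = 0.0204 for each). The sign changed, from -1.70 in flox to 3.34 in the knockout for Cyp17a1 and from -2.91 to 3.52 for Mmd2. Both calls were lost when any MET_KO array was left out.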

How the results depend on the processing

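The count of 389 called genes became 917 on signals as deposited, 1508 with arrays centred on their median, 637 with the mean of a gene's probe sets, 2006 on days 0, 2 and 7 alone, 17 with array set as a term and 1 on the 8 flox arrays (3104 with an unadjusted p under 0.05). It was 304 without the filter and 339 and 420 with pseudocounts of 1 and 64. Pairing by day mattered: with no replicate block for day, 26 genes were called, all among the 389. Without all arrays of day 0, 2 or 7, an alternative chosen after seeing the data, limma called 0 genes each time (2339, 1957 and 1979 with an unadjusted p under 0.05). Leaving out 1 array gave 1 to 1075 calls, and 0 to 10 for the interaction. The 2006 calls of days 0, 2 and 7 became 3415 (2347 higher, 1068 lower) as deposited and 4260 (643 higher, 3617 lower) when centred. The 1734 genes past a size of 1 at day 14 became 2951 without the filter. Of 41 called genes named, 0 reversed under any alternative; 37 kept their call under each other scaling, 2 with array set as a term and 1 on the flox arrays. Cops4 stayed called whichever single array was left out, but not with array set as a term (limma adjusted p = 0.0715). Within an arm and day no replicate array exists, and low signals such as those of Ugt2b37 with canertinib limit the size of a difference.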
